A study of Rattus norvegicus with 15 samples.

Results

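The apolipoprotein gene cluster of the rat lies on chromosome 8 and was taken as every row of the count tables that fell wholly between 50520000 and 50565000 of the Rnor6 annotation. This window held 6 of the 32883 annotated rows. They were the coding genes Apoa1 (ENSRNOG00000045679), Apoc3 (ENSRNOG00000047503), Apoa4 (ENSRNOG00000055909) and Apoa5 (ENSRNOG00000018436), and the antisense rows ENSRNOG00000052246 and ENSRNOG00000059084. The window was selected on measured values, because Apoa4 was the gene that fell most among those called in antibiotic-treated rats over both genotypes, so the antibiotic values below describe these genes and no test of them is given.

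RNA of the colon MS tissue layer (mucosa and submucosa), which the labels call colon epithelial, was sequenced in 15 libraries. The rats were Sprague Dawley outbred animals, either homozygous BAC-hSNCA transgenic (TG), which carry the human α-synuclein gene on a bacterial artificial chromosome, or wild-type (WT) littermates. There were 3 libraries each of untreated WT rats (WT-C), antibiotic-treated WT rats (WT-Ab), untreated TG rats (TG-C) and antibiotic-treated TG rats (TG-Ab), all at 3 M of age, and of untreated WT rats at >12 M. The older TG group was not analysed here. From 2.5 M the treated rats drank streptomycin, ampicillin, amoxicillin with clavulanic acid, cefuroxime, neomycin and vancomycin in sucrose water for 2 weeks. Whether the untreated rats also drank sucrose is not stated in the sources used here, so the antibiotics and the sucrose cannot be told apart.

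Apolipoproteins are the protein part of lipoprotein particles, which carry lipids through lymph and blood. Enterocytes of the small intestine make several of them and load them onto chylomicrons after a fatty meal, and hepatocytes make them for very-low-density and high-density particles. The cluster is a classical locus of plasma triglyceride and cholesterol levels, and its genes respond to dietary lipid and to nuclear receptors such as HNF4A. The colon takes up little dietary lipid and is not a main site of their expression.

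Apoa1, Apoa4 and Apoa5 lay on the plus strand and Apoc3 on the minus strand. Apoa1 spanned chr8:50525091-50526875, with 889 exonic bases in 4 exons, and Apoc3 spanned chr8:50529318-50531498, with 651 exonic bases. Apoa4 spanned chr8:50537009-50539376, with 1407 exonic bases in 4 exons, and Apoa5 spanned chr8:50559126-50561736, with 1967 exonic bases in 4 exons. All 261 exonic bases of ENSRNOG00000052246 lay opposite an exon of Apoa1 and all 495 of ENSRNOG00000059084 opposite exons of Apoa4. The authors counted reads by strand, so reads of the antisense rows were kept apart from those of the coding genes.

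The sequences upstream of Apoa4 and Apoa5 are shown because Apoa4 was the member with the lowest treated level relative to its untreated level and Apoa5 was the other member with a sequence, with overlapping levels in treated and untreated rats. RefSeq gave a promoter for these 2 of the 4 coding genes. Each line holds the 250 bases before the annotated start, on the plus strand of GRCr8, a different build from that of the counts, and the capitals mark matches to the motifs searched.
Apoa4 (chr8:55435529-55435778): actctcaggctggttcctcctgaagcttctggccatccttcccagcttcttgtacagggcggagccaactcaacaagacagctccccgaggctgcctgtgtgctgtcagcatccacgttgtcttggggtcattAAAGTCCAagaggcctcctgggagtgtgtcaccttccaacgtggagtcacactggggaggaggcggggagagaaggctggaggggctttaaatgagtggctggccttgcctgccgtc
Apoa5 (chr8:55457621-55457870): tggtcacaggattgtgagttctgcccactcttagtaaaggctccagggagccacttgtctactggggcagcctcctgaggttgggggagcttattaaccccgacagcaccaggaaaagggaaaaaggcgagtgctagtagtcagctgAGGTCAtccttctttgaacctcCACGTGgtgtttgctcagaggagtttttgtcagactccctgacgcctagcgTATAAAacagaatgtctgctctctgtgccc
Of 7 motifs searched on both strands, the HNF4 core AAAGTCCA was found upstream of Apoa4, 117 bases before the start, and not in the Apoa5 sequence. It occurred in 1.19% of the 33469 RefSeq sequences of the same length. The Apoa5 sequence held a nuclear receptor half-site (AGGTCA, in 14.1% of sequences) at 103 bases, an E-box (CACGTG, in 5.59%) at 81 bases and a TATA box (TATAAA, in 12.9%) at 30 bases before the start. Neither sequence held a CCAAT box (CCAAT, in 34.0%), a GATA site (AGATAA, in 10.3%) or a CRE half-site (TGACGT, in 6.95%). A match describes letters only, and these data hold no measurement of binding.

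Among the 12 libraries at 3 M, WT-Ab 1, TG-C 1 and TG-Ab 1 stood apart on the first principal component, which held 59.2% of the variance. Their scores were 92.9, 92.1 and 63.9, against -52.3 to -2.08 in the others. The mitochondrial share of their counts was 7.62%, 6.05% and 9.35%, below the 11.04% to 13.7% of the others at this age. Their part in the results was not tested, and the fold changes, summed ratios and shares of the members at 3 M are given with and without them. Total counts ran from 15606835 to 28685094 per library, so that 3 counts, used as the floor of detection, stood for 0.105 to 0.192 CPM (counts scaled to a library total of 1000000). Intervals and floors cover counting error only.

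Apoa4, a lipid-binding protein of chylomicrons that is also known in satiety, was expressed in every untreated library and was close to or below the floor in every treated library. In WT-C the 3 libraries held 1.74, 24.2 and 3.22 CPM (28, 420 and 59 counts), and in WT-Ab they held 0, 0.0577 and 0.128 CPM (0, 1 and 2 counts). In TG-C they held 5.71, 1.85 and 23.7 CPM (101, 53 and 420 counts), and in TG-Ab 0.173, 0.0520 and 0 CPM (3, 1 and 0 counts). The treated and untreated libraries did not overlap in either genotype. The share of all genes without such overlap is not given. A lack of overlap, here and below, thus does not by itself set a gene apart. The lowest untreated library, at 1.74 CPM, stood above the highest treated one, at 0.173 CPM. The group means were 9.74 ± 12.6 CPM (SD, n = 3) in WT-C and 0.0620 ± 0.0642 CPM in WT-Ab, and 10.4 ± 11.7 CPM in TG-C and 0.0749 ± 0.0885 CPM in TG-Ab. Summed over the libraries of a group and scaled by depth, the ratio of untreated to treated counts was 159 in WT (exact 95% interval 54.1 to 773, from 507 and 3 counts) and 121 in TG (47.1 to 446, from 574 and 4 counts). These sizes rested on single libraries, since WT-C 2 and TG-C 3 each held 420 counts. The ratio was 41.0 (13.6 to 203) in WT without WT-C 2 and 44.9 (17.2 to 167) in TG without TG-C 3, and it was 324 without WT-Ab 3 and 329 without TG-Ab 1, each against a single treated count. Without the libraries that stood apart it was 108 in WT and 375 in TG. In bulk tissue, fewer cells of a type and less RNA per cell cannot be told apart.

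**Figure D1:**
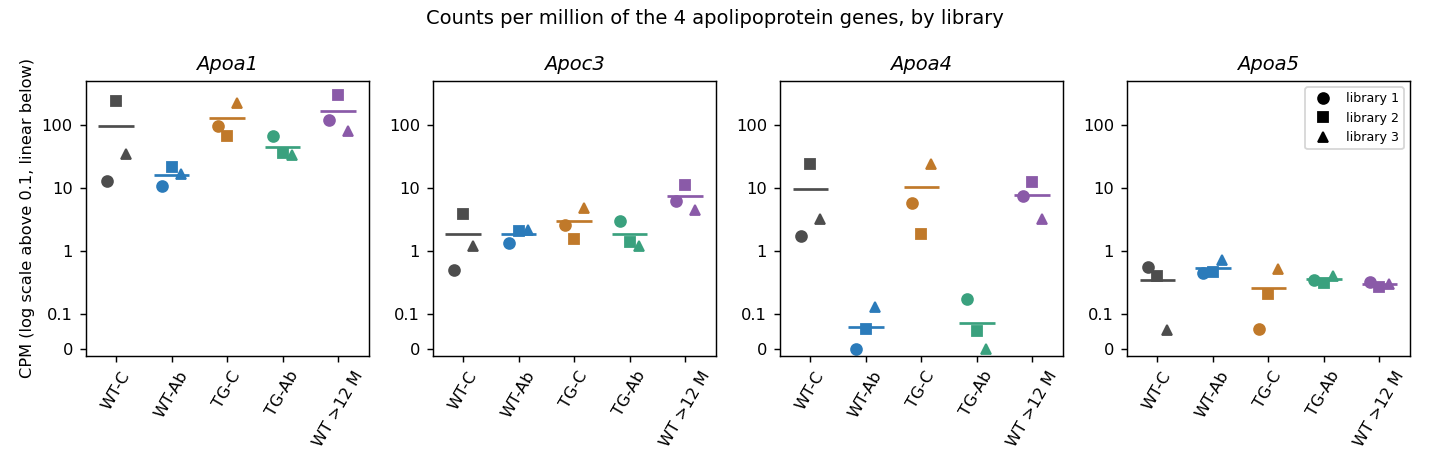
Each point is 1 library and each line the mean of 3, in CPM, with values under 0.1 drawn on a linear and higher values on a log scale. Apoa4 lay between 1.74 and 24.2 CPM in the 6 untreated libraries at 3 M and between 0 and 0.173 CPM in the 6 treated ones, while the groups of Apoc3 and Apoa5 at 3 M overlapped between treated and untreated rats.

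Apoa1, the main protein of high-density lipoprotein, was the most abundant member per length in all 15 libraries. It was at 12.7, 238 and 34.5 CPM in WT-C and at 10.8, 21.5 and 16.6 CPM in WT-Ab. The WT groups overlapped, because WT-C 1 lay below WT-Ab 2 and WT-Ab 3. In TG-C it was at 95.7, 67.4 and 224 CPM and in TG-Ab at 66.2, 36.0 and 33.2 CPM, so that the TG groups did not overlap, by a margin of 67.4 against 66.2 CPM. The summed ratio of untreated to treated counts was 5.82 in WT (5.40 to 6.28) and 2.64 in TG (2.53 to 2.77). WT-C 2 held 4120 of the 4955 untreated WT counts, and without it the WT ratio was 1.47 (1.34 to 1.63). Without TG-C 3 the TG ratio was 1.74 (1.66 to 1.84). These intervals cover counting error, which is small beside the spread between libraries. Without the libraries that stood apart the ratios were 4.99 in WT and 3.67 in TG.

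Apoc3, an inhibitor of lipoprotein lipase and of remnant uptake, had overlapping treated and untreated levels in both genotypes, with wide spread among libraries. It was at 0.498, 3.87 and 1.20 CPM in WT-C and at 1.34, 2.08 and 2.11 CPM in WT-Ab. In TG-C it was at 2.55, 1.57 and 4.74 CPM and in TG-Ab at 2.93, 1.40 and 1.20 CPM. In TG, 2 of the 3 treated libraries lay below the lowest untreated one. The summed ratio was 1.01 in WT (0.753 to 1.37) and 1.48 in TG (1.15 to 1.92). The WT value rested on WT-C 2, which held 67 of the 97 untreated counts, and was 0.471 (0.301 to 0.720) without it, with treated libraries the higher. Without WT-Ab 1, which stood apart, the WT value was 0.896 (0.651 to 1.24). The TG value was 1.06 (0.789 to 1.43) without TG-C 3 and 2.13 without the 2 libraries that stood apart.

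Apoa5, which promotes triglyceride hydrolysis by lipoprotein lipase and is made mainly by the liver, was near the floor in every group. It had 1 to 11 counts per library, or 0.0546 to 0.705 CPM, and its treated and untreated groups overlapped in both genotypes. The summed ratio was 0.615 in WT (0.313 to 1.18) and 0.711 in TG (0.342 to 1.46), and 0.570 and 0.914 without the libraries that stood apart. Without TG-C 3 the TG ratio was 0.430. ENSRNOG00000052246 had 1 count in each library of WT rats at >12 M and 0 in the other 12 libraries, and ENSRNOG00000059084 had 0 counts in all 15, which allows up to 0.192 CPM in the shallowest library.

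Of the 6 rows, 3 reached 4 CPM in at least 1 of the 12 libraries and entered the edgeR fit of antibiotics over both genotypes, in which 2.79% of 12457 genes were called. Genes that passed through their untreated libraries alone had to differ, and the fold changes below are descriptions from the contrast that chose the window. The log2 fold change was -7.24 (SE 1.09) for Apoa4, -2.18 (SE 0.667) for Apoa1 and -0.49 (SE 0.504) for Apoc3. Without the 3 libraries that stood apart, the values were -7.58, -2.34 and -0.60. Without WT-C 2 they were -6.46 for Apoa4, -1.24 for Apoa1 and -0.08 for Apoc3. Within WT, where 0% of 12193 genes were called by edgeR (1987 reached an unadjusted p under 0.05, and DESeq2 called 615), it was -7.28 (SE 1.51) for Apoa4 and -2.69 (SE 1.07) for Apoa1. The Apoa1 value in WT rested on WT-C 2 and was -0.67 (SE 0.516) without it. Without WT-Ab 1, which stood apart, the WT values were -6.74 for Apoa4 and -2.43 for Apoa1. Within TG, where 0.00814% of 12283 genes were called, it was -7.21 (SE 1.43) for Apoa4, -1.69 (SE 0.548) for Apoa1 and -0.84 (SE 0.652) for Apoc3. Without TG-C 3 the TG values were -5.59 for Apoa4 and -0.92 for Apoa1, and without TG-C 1 and TG-Ab 1 they were -8.76 for Apoa4, -2.25 for Apoa1 and -1.44 for Apoc3. A fitted value for Apoa4 depends on the prior count, since 1 treated library of each genotype held none. WT and TG share no library, but both enter the contrast over both genotypes.

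Same-numbered TG-C and TG-Ab libraries deviated together over all genes, but TG-C 1 and TG-Ab 1 both stood apart, which alone can make deviations agree. The labels share only a number, so the pairs below are by number and are not known pairs of rats. The ratio of untreated to treated CPM of Apoa1 was 1.44, 1.87 and 6.74 in pairs 1, 2 and 3. For Apoc3 it was 0.868, 1.12 and 3.95. For Apoa4 it was 33.1 in pair 1, from 101 and 3 counts, and 35.5 in pair 2, from 53 and 1 counts, and pair 3 compared 420 counts with 0. Pair 3 held the largest of the Apoa1 and Apoc3 ratios, with the highest untreated TG level of each gene.

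**Figure D2:**
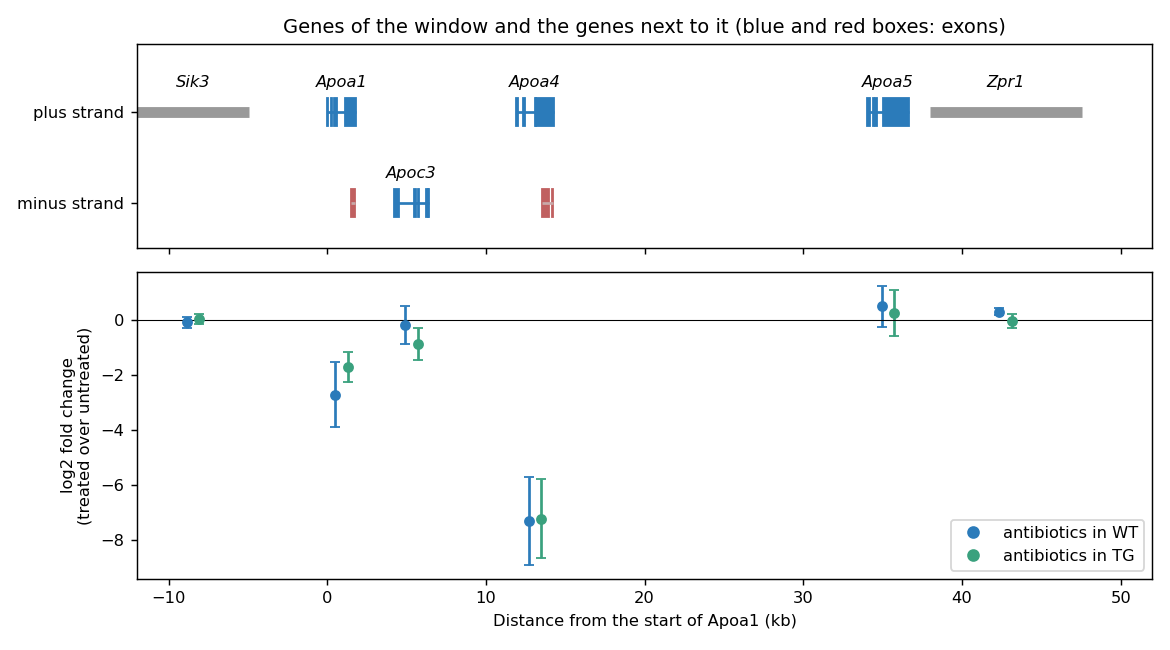
The upper panel maps the genes by strand against the distance from the start of Apoa1, with exons as boxes, the antisense rows in red, and the neighbours Sik3 and Zpr1 as grey bars. The lower panel shows the log2 fold change of treated over untreated rats with its standard error, from fits without a filter on low counts for the 4 coding genes. Apoa4 lay lowest in both genotypes, and Sik3 and Zpr1, on either side of the cluster, lay near 0.

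The genes next to the window were tested in the same contrast. Of the 10 rows on each side, 12 entered the fit over both genotypes, and edgeR called 0 of them (2 at an unadjusted p under 0.05, and 1 by DESeq2). Over all genes 2.79% were called, 20.5% had an unadjusted p under 0.05 and DESeq2 called 10.01%, so these counts do not set the neighbours apart from other genes. Their log2 fold changes ran from -0.15 to 0.68, with a median of 0.17, beside 0.03 over all genes tested. Without the 3 libraries that stood apart, edgeR called 0 of 11 neighbours (3 at an unadjusted p under 0.05), and DESeq2 was not run there. Over all genes edgeR then called 11.2%, and 29.6% had an unadjusted p under 0.05. Sik3, a salt-inducible kinase whose gene ends before Apoa1, had a log2 fold change of -0.01 (SE 0.136, adjusted p = 0.976 by edgeR). Zpr1, a zinc finger protein gene after Apoa5, had 0.15 (SE 0.147, adjusted p = 0.620 by edgeR).

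The make-up of the cluster RNA differed between the groups. As a percentage of the counts of the 4 coding genes, which are not corrected for length, Apoa4 took 9.54 ± 1.53% in WT-C, 5.83 ± 3.40% in TG-C, 0.298 ± 0.332% in WT-Ab and 0.128 ± 0.124% in TG-Ab (SD, n = 3 each). Although WT-C libraries ranged over a wide span of Apoa4 levels, the Apoa4 share stayed between 8.27% and 11.2%. In TG-C, also with a wide span of levels, the Apoa4 share ran from 2.60% to 9.38%. Apoc3 took 2.58 ± 0.982% in WT-C, 10.03 ± 1.23% in WT-Ab, 2.18 ± 0.288% in TG-C and 3.79 ± 0.387% in TG-Ab. Without the 3 libraries that stood apart, the mean Apoa4 share was 5.99% in TG-C, 0.447% in WT-Ab and 0.0689% in TG-Ab, and the mean Apoc3 share was 2.04%, 9.72% and 3.58%. Apoc3 had 96.5 to 127 counts per 1000 Apoa1 counts in WT-Ab, above the 16.3 to 39.2 in WT-C, the 36.1 to 44.3 in TG-Ab and the 21.2 to 26.6 in TG-C.

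**Figure D3:**
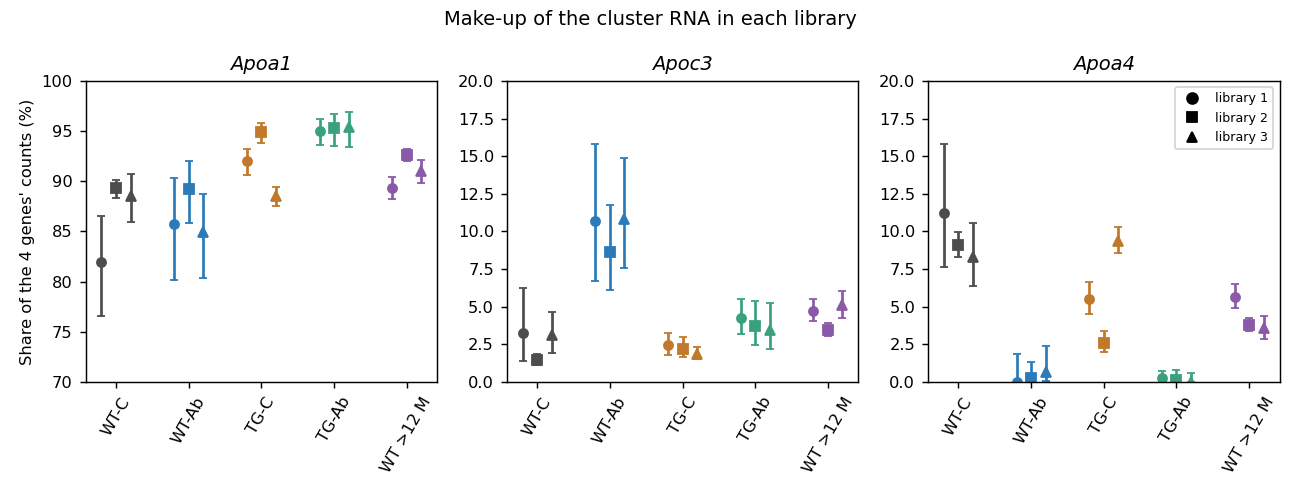
Points show, for each library, the percentage of the summed counts of Apoa1, Apoc3, Apoa4 and Apoa5 that each named gene took, with exact 95% binomial intervals for counting error. The axis for Apoa1 starts at 70%. The Apoa4 share was 0% to 0.656% in treated rats and 2.60% to 11.2% in untreated rats at 3 M, and Apoc3 was at 8.61% to 10.8% in WT-Ab.

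Per length, as CPM per kilobase of exon, the order of the members changed with treatment. Apoa4 was above Apoc3 in all 3 WT-C and in 2 of 3 TG-C libraries, and below it in all treated libraries and all libraries at >12 M. Apoa5 was above Apoa4 in all 6 treated libraries, where Apoa4 had 0 to 3 counts, and in none of the others. Apoa1 stood at 14.3 to 268 CPM per kilobase in WT-C, above 69.4% to 98.5% of the genes with counts, and at 12.1 to 24.2 in WT-Ab, above 61.4% to 78.8%. In TG rats it stood at 75.8 to 252 CPM per kilobase untreated and at 37.3 to 74.5 treated. Apoc3 stood at 0.766 to 5.94 in WT-C and 2.06 to 3.25 in WT-Ab, and Apoa4 at 1.24 to 17.2 in WT-C. The labels name a poly(A) kit for whole transcripts and the study's methods name a 3' end kit, for which levels per length would not apply.

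Genotype was tested in contrasts that had not chosen the window. In untreated rats, TG-C over WT-C, edgeR called 0% of 12038 genes (317 reached an unadjusted p under 0.05, and DESeq2 called 13) and 0 of the 3 members tested, with 0 at an unadjusted p under 0.05 and 0 by DESeq2. The log2 fold change was 0.46 (SE 1.10, adjusted p = 0.954) for Apoa1, 0.14 (SE 1.29, adjusted p = 0.987) for Apoa4 and 0.68 (SE 0.857, adjusted p = 0.918) for Apoc3. The sign for Apoa1 and Apoa4 changed when single libraries were left out. Without TG-C 1 the values were 0.68, 0.45 and 0.80. Apoc3 reached the 4 CPM of the filter in TG-C 3 alone, so the filter favoured a higher value in TG-C. Without a filter on low counts its log2 fold change was 0.67 (SE 0.769, adjusted p = 0.870 by edgeR).

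In treated rats, TG-Ab over WT-Ab, Apoa1 alone passed the filter. Its log2 fold change was 1.44 (SE 0.363, unadjusted p = 0.00606, adjusted p = 0.9998 by edgeR and 0.140 by DESeq2), and 0.00815% of 12274 genes were called. All 3 TG-Ab libraries, at 33.2 to 66.2 CPM, lay above the 3 WT-Ab libraries, at 10.8 to 21.5 CPM, but the difference did not pass the test over all genes. Without WT-Ab 1 and TG-Ab 1 it was 0.86 (SE 0.175, adjusted p = 0.283 by edgeR). The shares within the cluster did not overlap between the treated genotypes for Apoa1 (86.6 ± 2.28% in WT-Ab and 95.3 ± 0.186% in TG-Ab), Apoc3 and Apoa5. In each case the exact two-sided permutation test gave p = 0.1, the smallest that 3 against 3 libraries allow, and 0.2 after adjustment over 12 share tests. Shares of the same total depend on each other, so these are not separate results. Mean Apoc3 was 1.84 CPM in WT-Ab and 1.85 CPM in TG-Ab. Mean Apoa1 was 16.3 and 45.1 CPM, and mean Apoa5 was 0.538 and 0.352 CPM. Apoa4 shares overlapped (exact permutation p = 0.7). Without WT-Ab 1 and TG-Ab 1, 2 libraries a group remained, with a mean Apoa1 share of 87.1% in WT-Ab and 95.4% in TG-Ab, and no test was run. Same-numbered WT-Ab and TG-Ab libraries deviated together, but WT-Ab 1 and TG-Ab 1 both stood apart, which alone can make deviations agree. With a replicate block the Apoa1 difference was 1.43 (adjusted p = 0.9998 by edgeR).

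Whether the antibiotic difference itself differed between genotypes was tested as an interaction. edgeR called 0% of 12457 genes (183 reached an unadjusted p under 0.05, and DESeq2 called 3) and 0 of the 3 members tested, with 0 at an unadjusted p under 0.05 and 0 by DESeq2. The difference of log2 fold changes, TG minus WT, was 0.11 (SE 2.06) for Apoa4, 1.02 (SE 1.28) for Apoa1 and -0.67 (SE 1.03) for Apoc3, each with an adjusted p = 0.998. Without the 3 libraries that stood apart these were -1.998 (SE 4.98), 0.16 (SE 1.70) and -1.51 (SE 1.20). The standard error for Apoa4 is wide, because its treated libraries held 0 to 3 counts. Apoc3 reached the 4 CPM of the filter in TG-C 3 alone, so the filter favoured a negative interaction for it. Without a filter on low counts its interaction was -0.66 (SE 0.954).

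With age, untreated WT rats at >12 M were compared with WT-C, which also enter the antibiotic contrasts. Age goes with the counting of read pairs in place of single reads, and perhaps with the sequencing run, which the labels used here do not state. These cannot be told apart, and 35.3% of 11498 genes were called. Apoc3 was at 6.28, 11.2 and 4.54 CPM at >12 M, above all 3 WT-C libraries (0.498 to 3.87 CPM). Its log2 fold change was 2.03 (SE 0.695, adjusted p = 0.0589 by edgeR and 0.00619 by DESeq2). Without WT-C 2, the highest WT-C library, it was 3.15 (adjusted p = 0.0151 by edgeR). Without any other single library it was 1.57 to 2.29, with an adjusted p of 0.0610 to 0.154 by edgeR. Apoc3 reached the 4 CPM of the filter only at >12 M, so the filter favoured a higher value there. Its p-values in this contrast are thus descriptions. Without a filter on low counts its log2 fold change was 2.05 (SE 0.772, adjusted p = 0.130 by edgeR). Apoa1 was at 119, 299 and 81.4 CPM at >12 M, which overlapped WT-C, with a log2 fold change of 0.87 (SE 1.22, adjusted p = 0.608 by edgeR), and 2.88 without WT-C 2 (adjusted p = 0.0573 by edgeR). Apoa4 was at 7.52, 12.2 and 3.19 CPM, with a log2 fold change of -0.29 (SE 1.01, adjusted p = 0.844 by edgeR), and the difference was 1.68 without WT-C 2. edgeR thus called 0 of the 3 members tested (1 at an unadjusted p under 0.05, and 1 by DESeq2). Over all genes 47.1% had an unadjusted p under 0.05 and DESeq2 called 39.2%, so these counts do not set the members apart from other genes. The Apoa4 share was 4.34 ± 1.15% at >12 M and 9.54 ± 1.53% in WT-C, without overlap (exact permutation p = 0.1, adjusted p = 0.2). The Apoc3 share was 4.42 ± 0.852% at >12 M and 2.58 ± 0.982% in WT-C, with the same exact permutation p.

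**Figure D4:**
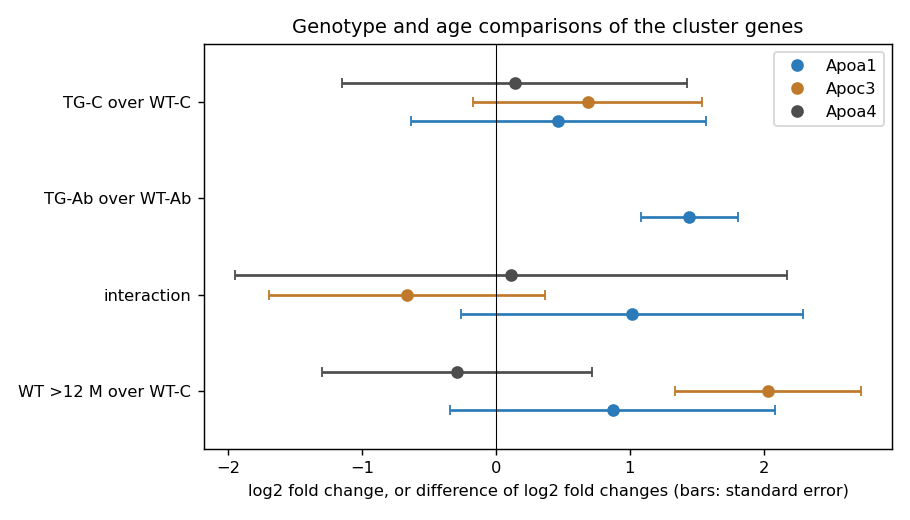
Points show the log2 fold change of the first named group over the second, and for the interaction the TG minus WT difference of antibiotic log2 fold changes, with bars of 1 standard error. The largest value was 2.03 for Apoc3 with age, and Apoa1 alone had a value in the treated rats, 1.44.

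Levels varied more among untreated WT rats for these genes than for most others. In WT-C the SD of log2 CPM was 2.15 for Apoa1, 1.96 for Apoa4 and 1.38 for Apoc3, beside a median of 0.14 over all genes, and 0.257%, 0.329% and 0.698% of genes had a larger SD. In TG-C it was 0.98 for Apoa1, 1.88 for Apoa4 and 0.84 for Apoc3, beside a median of 0.38, and 12.1%, 4.43% and 15.4% of genes had a larger SD. Genes were ranked without regard to their level, and low counts raise this SD. WT-C 2 was the highest WT-C library for Apoa1, Apoc3 and Apoa4, and TG-C 3 the highest TG-C library for each.

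Over the 6 untreated libraries at 3 M, 2 of the 6 pairs of coding genes, Apoa1 with Apoc3 and Apoc3 with Apoa4, had a Pearson r past the threshold, and no Spearman rho passed it. All 6 pairs of the 4 coding genes were computed on log2 CPM, with exact permutation p values adjusted over the pairs. Apoa1 and Apoc3 had a Pearson r of 0.990 (exact permutation p = 0.00278, adjusted p = 0.0167) and a Spearman rho of 0.943 (exact permutation p = 0.0167, adjusted p = 0.05). Apoc3 and Apoa4 had r = 0.893 (exact permutation p = 0.0139, adjusted p = 0.0417) and rho = 0.886 (exact permutation p = 0.0333, adjusted p = 0.0667). Apoa1 and Apoa4 had r = 0.877 (exact permutation p = 0.0292, adjusted p = 0.0583) and rho = 0.943 (exact permutation p = 0.0167, adjusted p = 0.05). Without the 2 libraries farthest from the median, r was 0.982, 0.892 and 0.843 for these pairs, with 4 libraries too few for a test to pass. After the mean of each genotype was taken off, r was 0.988, 0.959 and 0.929, each with an exact permutation p = 0.0278 within genotypes, the smallest that this design allows, and an adjusted p = 0.0556. The pairs with Apoa5 had r of 0.0932 with Apoa1, 0.0477 with Apoc3 and 0.303 with Apoa4, none past the threshold, and Apoa5 was near the floor. Each genotype holds 3 libraries, too few for a correlation of its own. The 6 libraries include TG-C 1, which stood apart, and no r was computed over the other 5.

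**Figure D5:**
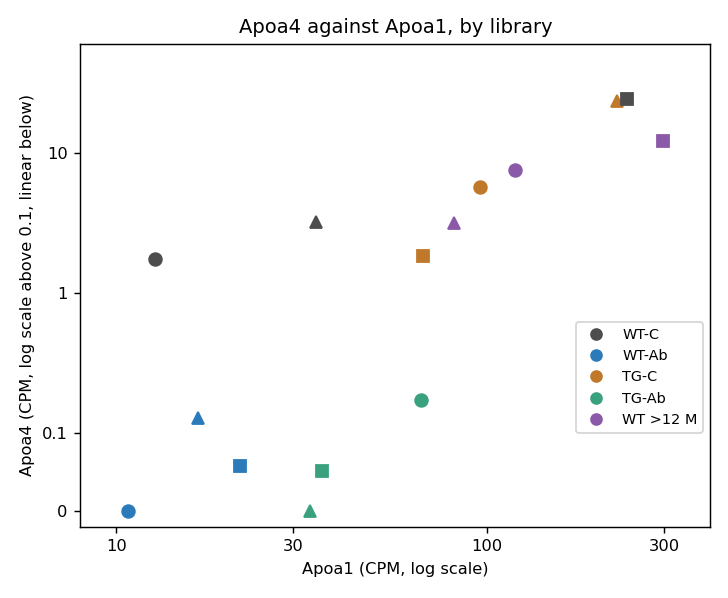
Each point is 1 library, in CPM of Apoa1 (log axis) and of Apoa4 (log axis, linear under 0.1). Libraries of untreated rats ran upward together, and treated libraries lay at 0 to 0.173 CPM of Apoa4 over 10.8 to 66.2 CPM of Apoa1.

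Genes outside the window were ranked by the likeness of their pattern to Apoa4, as the Pearson r of log2 CPM and as a description only. Here CPM was scaled by TMM, so that values differ slightly from the correlations above, which used the library totals. Over the 12 libraries at 3 M, the closest 5 of 12454 genes had r of 0.925 to 0.937. The first was ENSRNOG00000021198, at 61.0 to 87.9 CPM in WT-C and 28.1 to 41.3 in WT-Ab. In TG rats it was at 96.8 to 107 CPM untreated and 37.1 to 45.6 CPM treated. The second was ENSRNOG00000021796, at 23.4 to 33.6 CPM in WT-C and 9.19 to 16.7 in WT-Ab. Apoa1 had r = 0.776 with Apoa4, and 248 genes had a higher r, while Apoc3 had r = 0.499, and 2030 genes had a higher r. Over the 6 untreated libraries Apoc3 had r = 0.900, with 13 genes higher, and Apoa1 r = 0.881, with 23 genes higher. The closest 5 genes over those libraries had r of 0.949 to 0.972.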

How the data were processed

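Colon RNA was measured in 15 libraries. What the authors deposited were raw, unnormalized counts per gene in 1 table for each. Per the file headers, they counted with featureCounts 2.0.0 over exons of Rnor6 (strand setting 2, mapping quality of at least 3), as read pairs at >12 M and single reads at 3 M. The submitters' notes also name STAR 2.5.4a and bcl2fastq 2.19.1.

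Groups came from the sample labels. The labels do not state that libraries of a group came from separate rats, so p-values measure the spread between these libraries. The test was that of edgeR 4.0.16 in R 4.3.3 (TMM, robust quasi-likelihood test, two-sided, Benjamini-Hochberg over all genes kept, adjusted p under 0.05), on genes that reached 4 CPM in any 1 of the libraries compared, and checked on simulated data. The SE is the size of the log2 fold change over the square root of the F statistic. DESeq2 1.42.0, other filters and scalings, a replicate block and single libraries left out were tried as alternatives. Depth was 15606835 to 28685094 counts.

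The members, lists and tests were chosen with earlier results of these data known. Every row of the window was named, the 10 rows on each side were counted, and the 5 genes most like Apoa4 were ranked. The share and pair values, and the summed ratios and shares without single libraries, were added after the levels were seen. RefSeq (GRCr8) paired 0 of the 32883 identifiers with a symbol, so the lists of lipid genes and cell type markers were not analysed here, and the labelled tissue was not checked against markers. Apoa4 was named by identifier, Apoa1, Apoc3 and Zpr1 by the same span in RefSeq, and Sik3 and Apoa5 by order and strand. The counted Apoa5 row spanned 2611 bases, against 14181 for Apoa5 in RefSeq. What this difference meant for its counts was not tested.

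Same-numbered libraries share only a number in the labels. Their deviations from the group means correlated at 0.798, 0.793 and 0.577 between TG-C and TG-Ab, at 0.593, 0.228 and 0.555 between WT-Ab and TG-Ab, at -0.05, 0.19 and -0.15 between WT-C and WT-Ab, and at -0.05, 0.32 and -0.23 between WT-C and TG-C. TG-C 1, TG-Ab 1 and WT-Ab 1 all stood apart, which alone can make same-numbered deviations agree, and no WT-C library did. The correlations therefore cannot tell whether the numbers mark pairs.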

Additional observations from a re-analysis of the deposited data

How the results depend on the processing

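For Apoa1, Apoc3 and Apoa4, other filters, scalings and DESeq2 kept the direction of each value. With the replicate block, the interaction for Apoa4 was -0.11 and no call on a member changed, while calls over all genes rose from 347 to 820 over both genotypes and from 1 to 20 in TG. DESeq2 called 1247 genes over both genotypes, 1 neighbour there, and Apoc3 with age (2.05), where it called 39.2% of genes. Without the 3 libraries that stood apart, Apoa4 was -8.76 in TG and its interaction was -1.998. The cause was not tested.

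Leaving out single libraries moved Apoa1 in WT from -3.21 to -0.67, Apoa4 in TG from -8.45 to -5.59, the genotype value in untreated rats from -0.29 to 2.51 (Apoa1) and from -1.45 to 2.14 (Apoa4), the interaction from -1.01 to 1.77 (Apoa1) and from -1.88 to 1.72 (Apoa4), and the age value from -0.83 to 1.68 (Apoa4) from 1.57 to 3.15 (Apoc3) and from 0.10 to 2.88 (Apoa1). Apoc3 ran from 0.24 to 1.83 for genotype in untreated rats, from -1.80 to -0.22 for the interaction and from -0.73 to -0.08 over both genotypes, where Apoa1 ran from -2.40 to -1.24. Without TG-C 3, the only library through which it passed the filter, Apoc3 was not fitted in these comparisons. Apoa1 in TG ran from -2.03 to -0.92. Calls over both genotypes then ran from 89 (without WT-C 2) to 1848 (without TG-C 1). Of the neighbours, edgeR called 1 with age, Zpr1 (0.25, adjusted p = 0.0460), and 0 when any library was left out.

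Without the 2 libraries farthest from the median, r was 0.982 for Apoa1 and Apoc3, 0.892 for Apoc3 and Apoa4 and -0.82 for Apoa4 and Apoa5, over 4 libraries. Within genotypes r was 0.988 for Apoa1 and Apoc3, 0.959 for Apoc3 and Apoa4 and 0.929 for Apoa1 and Apoa4, none past the threshold. Depth limits Apoa5, the antisense rows and treated Apoa4, all within a few counts of 0.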
